A study of Mus musculus with 44 samples.

Results

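Fragments of the lysine tRNA with anticodon TTT (LysTTT) were examined in the hypothalamus of diet-induced obese and lean mice. The 46 LysTTT fragments are the rows of the tRNA fragment (tRF) table that name only LysTTT and hold at least 220 counts over 44 libraries, so they were selected on their measured abundance. They are 46 of 17051 fragments in the table and 46 of the 797 rows that name only LysTTT, and they hold 192667 of 4569025 tRF counts (4.22%) and 94.9% of all counts named only LysTTT. At the minimum count, the nearest fragments inside had 242 and 227 counts and the nearest outside had 211 and 209.

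C57Bl/6J mice ate a high-fat diet for 11 weeks and then received an intravenous locked nucleic acid oligonucleotide at 3.3 mg/kg for 3 days. The AM132 group (n = 16) received a 16-mer complementary to miR-132, and the AM608 group (n = 16) received a 15-mer complementary to miR-608, a primate miRNA, as the control. The RCD group (n = 12) was lean, of the same age, and ate regular chow, and the labels describe no injection for it. Hypothalami of the injected mice were taken 7 days after treatment, and small RNA libraries were made from 200 ng of total RNA with an RNA integrity number above 8.4. Each injected group had 4 libraries in batch 1, 8 in batch 2 and 4 in batch 3, while lean mice had 4 in batch 2 and 8 in batch 4. Each library is a separately numbered mouse sample, and p-values measure the spread between these samples.

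A tRNA of this kind reads lysine codons, and its anticodon loop carries modified bases beside and within the anticodon. Ribonucleases such as angiogenin, which is active in stressed cells, can cut tRNAs in that loop and release 5′-halves and 3′-halves. Shorter pieces from the 5′ end, the 3′ end or the interior are called 5′-tRFs, 3′-tRFs and i-tRFs, and 5′-halves of several tRNAs are known to bind translation factors.

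The deposited fragment sequences joined into 1 tRNA of 76 bases that contains all 46 fragments. Positions below are counted from its 5′ end, which puts the anticodon at bases 34 to 36 and the final CCA from base 74. The tRNA is shown as the frame for all positions, followed by the 3 most abundant fragments, the most abundant 5′-half, the main fragment ending before the anticodon, the 3 fragments that differed between batches of lean mice, and the 3′-half. Capitals mark anticodon bases.
LysTTT tRNA: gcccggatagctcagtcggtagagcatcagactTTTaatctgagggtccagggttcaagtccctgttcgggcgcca
tRF-36-PS5P4PW3FJHPEZE: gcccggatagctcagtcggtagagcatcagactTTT
tRF-35-K8HJ83ML5F82NZ: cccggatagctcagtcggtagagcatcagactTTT
tRF-34-32VIJMRPFQJDKQ: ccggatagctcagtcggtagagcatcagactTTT
tRF-33-PS5P4PW3FJHPW: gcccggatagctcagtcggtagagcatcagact
tRF-30-32VIJMRPFQJD: ccggatagctcagtcggtagagcatcagac
tRF-29-MEF91SS2PMER: cggatagctcagtcggtagagcatcagac
tRF-46-VIJMRPFQJDZXHY13KK0: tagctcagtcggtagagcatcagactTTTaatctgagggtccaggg
tRF-22-WURMJKYON: tctgagggtccagggttcaagt
tRF-42-YEN0RR1380877S6V2: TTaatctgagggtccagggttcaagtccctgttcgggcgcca

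Almost all LysTTT signal came from the 5′ side of the tRNA. The 18 fragments that start at bases 1 to 4 and end at bases 32 to 36, in or next to the anticodon loop, held 90.2% of the counts of the 46. The map of the fragments along the tRNA shows this block as the thickest lines. tRF-36-PS5P4PW3FJHPEZE, from base 1 through the last anticodon base, had 44591 counts. tRF-35-K8HJ83ML5F82NZ and tRF-34-32VIJMRPFQJDKQ end at the same base and lack the first base or the first 2 bases, and they had 38484 and 30011 counts. These 3 fragments made up 58.7% of the LysTTT counts and the first 10 made up 84.8%, while 26 of the 46 had under 1000 counts each.

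**Figure D1:**
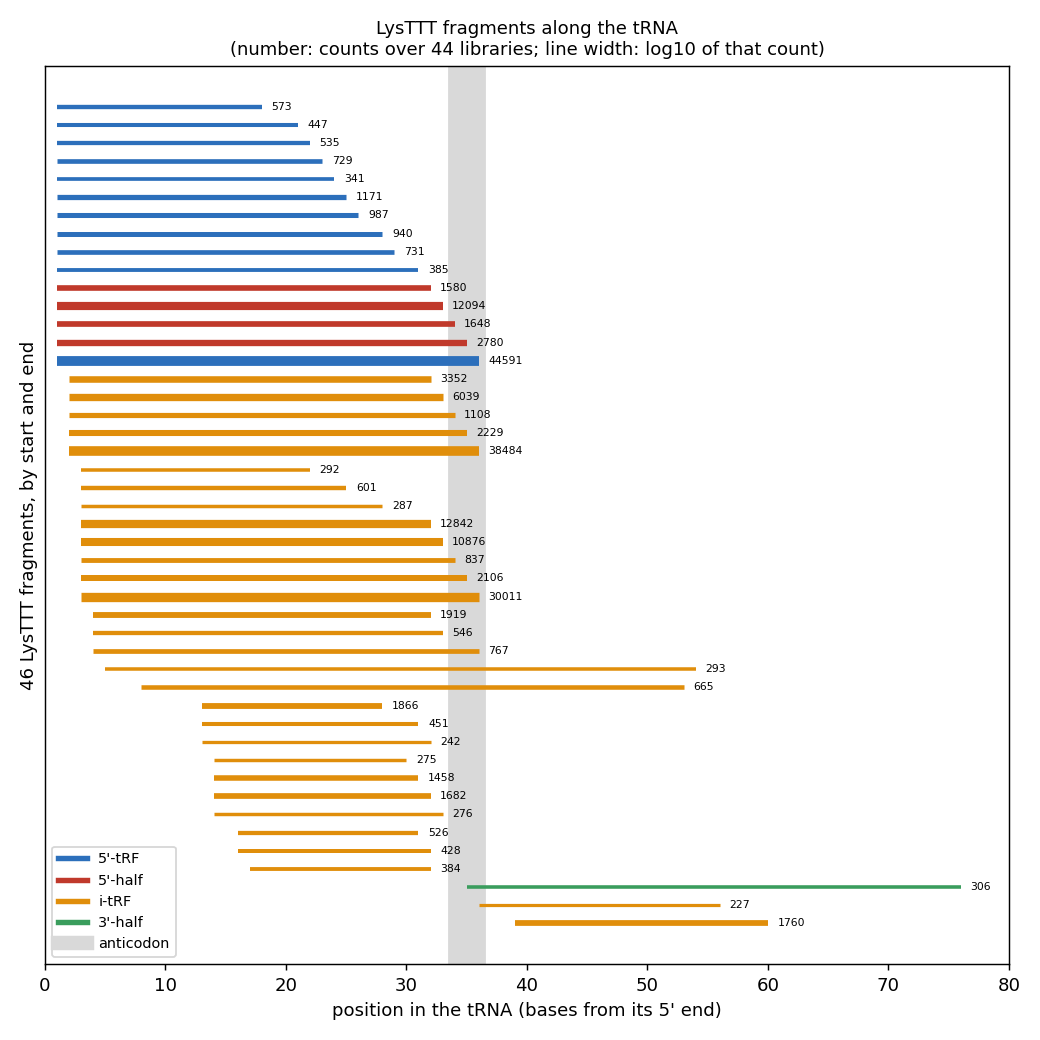
Each line is 1 of the 46 LysTTT fragments, placed by its first and last base in the tRNA, with its counts summed over 44 libraries beside it and its type by colour. The band marks the anticodon; the 3 largest totals, 44591, 38484 and 30011, all end at its last base.

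The last base was not evenly spread over the loop. Fragments ending at base 36 held 59.1% of the counts, those ending at base 33, just before the anticodon, held 15.5%, and those ending at base 32 held 11.6%. Ends inside the anticodon were rarer, with 1.86% at base 34 and 3.69% at base 35. Among fragments starting at base 1, the totals were 44591 for end 36, 12094 for end 33 and 2780 for end 35. Among those starting at base 2, they were 38484 for end 36, 6039 for end 33 and 3352 for end 32. Fragments starting at base 3 had more counts ending at base 32 (12842) than at base 33 (10876).

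The last base was differently spread in related fragments of the table. The 107 fragments named only LysCTT, the other lysine tRNA of the table, had 7.79% of their counts ending at base 36 and 34% ending at base 35. The 143 fragments named only GluCTC or GluTTC had 28.1% ending at base 36, their commonest end in the loop as in LysTTT, and 25.7% at base 35. In the median library, fragments of 46 to 50 nt held 40.9% of the LysCTT counts and 0.576% of the LysTTT counts. These shares were not tested.

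The fragment type assigned in the table follows these positions only in part. Types were 30 i-tRFs with 63.8% of the counts, 11 5′-tRFs with 26.7%, 4 5′-halves with 9.40% and 1 3′-half with 0.159%. A fragment from base 1 to base 32, 33, 34 or 35 is listed as a 5′-half, and the one from base 1 to base 36 is listed as a 5′-tRF. All fragments that begin at bases 2 to 4 are listed as i-tRFs, including tRF-35-K8HJ83ML5F82NZ, which differs from the most abundant 5′-tRF by 1 base. No 3′-tRF reached the minimum; the 37 rows of that type had 364 counts in all and at most 47 each.

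The 3′ side was sparse. The only 3′-half, tRF-42-YEN0RR1380877S6V2, runs from base 35 to the final CCA at base 76 and had 306 counts over the 44 libraries. Its scaled level, in scaled counts-per-million (CPM, counts relative to the library's tRF counts after trimmed-mean scaling between libraries), ranged from 12.9 to 143 with a median of 66.4. The 5′-half tRF-33-PS5P4PW3FJHPW had 12094 counts and ranged from 833 to 8949 CPM with a median of 2088. The lowest library of the 5′-half was above the highest library of the 3′-half.

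Library depth was 38619 to 221358 tRF counts and 3020192 to 5997234 miRNA counts. LysTTT counts per library ranged from 580 to 16822, and 31 of the 46 fragments had a count in every library. The targeted miRNA, miR-132-3p, ranged from 62.3 to 1219 CPM of the miRNA table with a median of 708 in AM132, from 639 to 1243 with a median of 921 in AM608, and from 764 to 1624 with a median of 988 in RCD; these ranges overlap. The 4 brain markers (miR-9-5p, miR-124-3p, miR-128-3p and miR-7a-5p) summed to 181706 to 343471 CPM of the miRNA table over the libraries. The 6 pituitary markers had a median sum of 268, and AM608 5, AM132 6 and AM132 5 stood apart at 20742, 14836 and 2015. Median sums of the choroid plexus, erythroid, muscle and liver markers were 3045, 737, 313 and 37.6. AM132 6 was also highest for the muscle markers at 3060.5, with the next library at 697, and RCD 2 was highest for the choroid plexus markers at 7608, with the next at 5443. The erythroid markers were highest in AM608 4 (2005) and AM608 16 (1933), and the liver markers reached 73.4.

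The LysTTT share of all tRF counts differed more between libraries of 1 group than between groups. It ranged from 0.752% to 4.99% in AM132 (median 4.05%), from 0.677% to 7.60% in AM608 (median 4.58%) and from 0.969% to 6.85% in RCD (median 2.56%). All 3 groups therefore held libraries below 1% and libraries near 5% or above. The lowest were AM608 8 (0.677%), AM132 12 (0.752%), RCD 10 (0.969%) and AM132 8 (0.977%), all of batch 2, and the highest was AM608 13 (7.60%) of batch 3. In bulk tissue, fewer cells that hold these fragments and less of them per cell cannot be told apart.

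Another abundant set of fragments was high in the libraries with the lowest share, but also in libraries with a share near the median. LysCTT fragments of 46 nt or longer held 59.9% of tRF counts in AM608 8, 57.2% in AM132 12, 34.5% in RCD 10 and 36.3% in AM132 8, against a median of 16.2% over the 44 libraries, and 0.0117% in AM608 13. A larger share of 1 kind of fragment lowers the share of all others, and the part of this in the LysTTT share was not tested. In RCD 7, LysCTT fragments of this length held 0.0405% and LysTTT fragments held 2.95%.

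**Figure D2:**
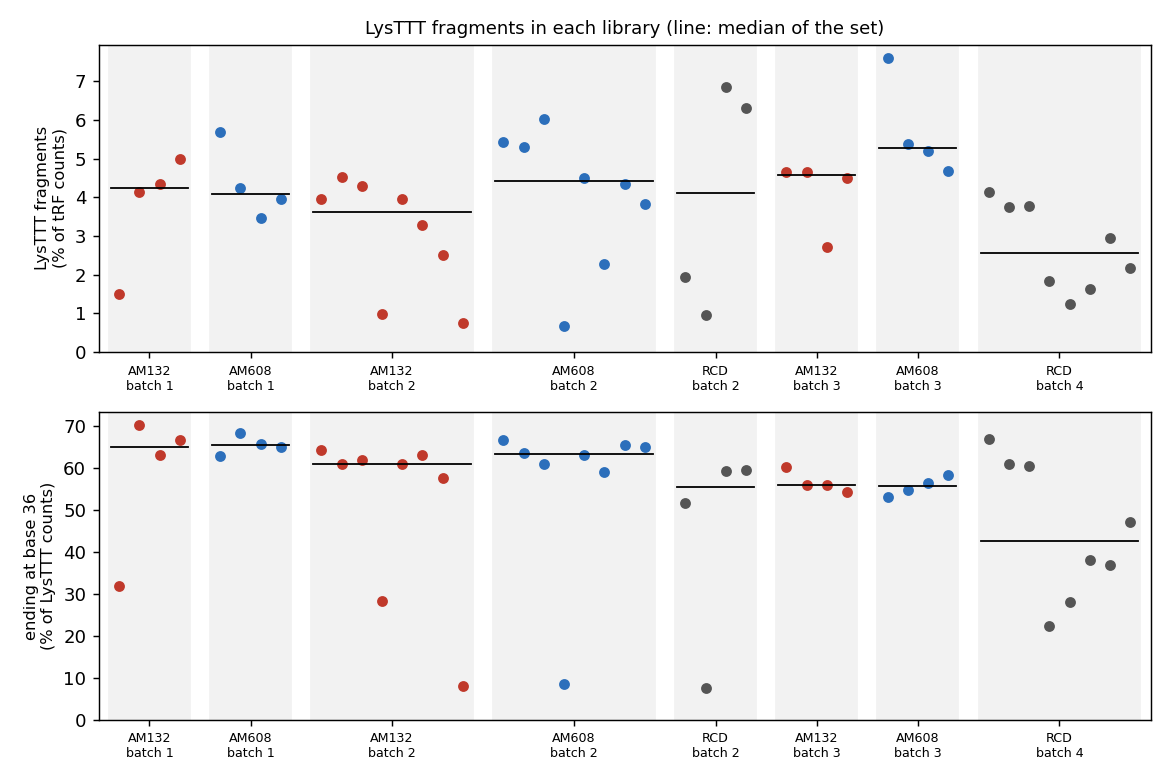
Each point is a library, grouped by treatment and batch, and each line is the median of that set. The upper axis is the LysTTT share of tRF counts in percent and the lower axis is the percent of LysTTT counts that end at base 36; libraries such as AM608 8 (0.677% and 8.62%) lie far below the others of their set in both.

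The libraries with few LysTTT counts also held a different mix of LysTTT fragments. The percent of LysTTT counts ending at base 36 had a median of 59.9% over the 44 libraries, but was 7.62% in RCD 10, 8.10% in AM132 12 and 8.62% in AM608 8. It was 22.3% in RCD 4, 28.2% in RCD 5, 28.3% in AM132 8 and 32% in AM132 1. Low values occurred in all 3 groups and in batches 1, 2 and 4, and no library of batch 3 was below 53.2%.

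The 3 fragments that are most abundant over all libraries were far below their medians in 3 of these libraries. tRF-36-PS5P4PW3FJHPEZE had a median of 11266 CPM and stood at 413 in AM608 8, 340 in AM132 12 and 373 in RCD 10. tRF-35-K8HJ83ML5F82NZ, without the first base, had a median of 9028 CPM and stood at 95.3, 62.7 and 90.6 in the same libraries. tRF-34-32VIJMRPFQJDKQ, without the first 2 bases, had a median of 5763 CPM and stood at 21.2, 35.8 and 50.3. The 5′-half tRF-33-PS5P4PW3FJHPW had a median of 2088 CPM and stood at 1504, 833 and 1410. In those libraries the 33-nt 5′-half was therefore the more abundant fragment, while in the median library it was the less abundant one.

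**Figure D3:**
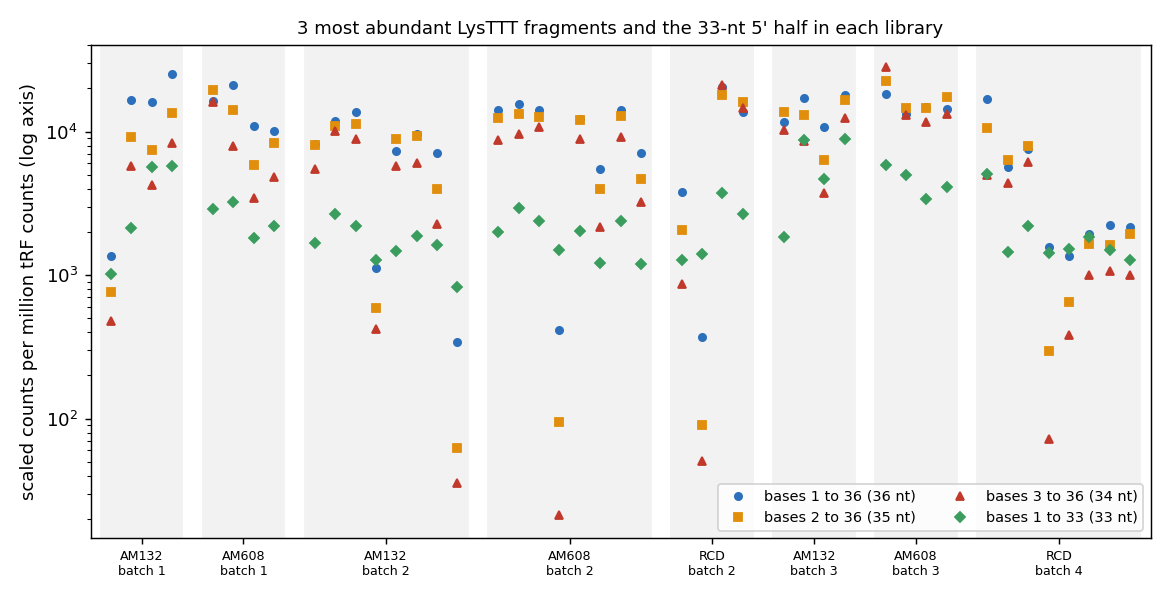
Scaled CPM of 4 LysTTT fragments in each library (log axis), grouped by treatment and batch. In AM608 8, AM132 12 and RCD 10 the 33-nt 5′-half (diamonds) lies above the 3 fragments ending at base 36, whose median levels over all libraries are 11266, 9028 and 5763 CPM.

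Fragments of equal length differed in these libraries. The table holds 4 LysTTT fragments of 33 nt: tRF-33-PS5P4PW3FJHPW (bases 1 to 33), tRF-33-K8HJ83ML5F82DQ (2 to 34), tRF-33-32VIJMRPFQJD0Q (3 to 35) and tRF-33-MEF91SS2PMFI0Q (4 to 36). In AM608 8 they stood at 1504, 0, 10.6 and 0 CPM, and in AM132 12 at 833, 0, 0 and 0 CPM. In RCD 10 the first stood at 1410 CPM and none of the other 3 was above 20.1 CPM. In RCD 12, a library of the same batch, they stood at 2669, 467, 855 and 404 CPM. A CPM of 0 in these libraries is limited by their depth of 69012 to 85724 tRF counts.

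Libraries also differed in where the 5′ end of the fragments lay. Among fragments that start at bases 1 to 4 and end at base 33, the percent starting at base 1 had a median of 49.5% over the libraries and ranged from 20.8% to 95.3%. For those ending at base 32 it had a median of 12.7% and ranged from 2.55% to 68.0%, and for those ending at base 36 it had a median of 42.1% and ranged from 26.2% to 80.4%. At each of these last bases the lowest library was AM608 13.

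The same percent, taken over all fragments that start at bases 1 to 4 and end at bases 32 to 36, moved together in LysTTT and in the other tRNAs. It ranged from 20.5% to 87.9% for LysTTT, from 34.1% to 94.8% for LysCTT and from 52.7% to 99.2% for the glutamate tRNAs. AM608 13 was lowest in all 3 (20.5%, 34.1% and 52.7%), and RCD 10 was highest for LysCTT and glutamate (94.8% and 99.2%) and at 87.2% for LysTTT, just below AM608 8. Over 44 libraries the LysTTT percent had a Pearson r of 0.96 and a Spearman rho of 0.98 with the LysCTT percent, and an r of 0.91 and a rho of 0.91 with the glutamate percent. Each permutation p was 1e-05, the smallest that 100000 permutations can give, and 1e-05 after Benjamini-Hochberg adjustment over 6 relations. Without the 2 libraries farthest from the median, r was 0.97 and 0.90. Within single batches r ranged from 0.95 to 0.97 for LysCTT and from 0.85 to 0.94 for glutamate. The 3 percents are taken from the same libraries and share their depth and preparation.

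Co-variation among the LysTTT fragments followed the same positions. The matrix of correlations shows a block of 13 fragments that start at bases 2 to 4 and end at bases 32 to 36. Their 78 pairs had a median r of 0.93 over 44 libraries on the log2 CPM scale (lowest 0.62), and 0.93 after each group and batch was centred. tRF-35-K8HJ83ML5F82NZ and tRF-34-32VIJMRPFQJDKQ, which differ by 1 base at the start, had an r of 0.99 and a rho of 0.97 (permutation p 1e-05 each, adjusted 1e-05), 0.99 without the 2 farthest libraries and 0.97 to 0.99 within batches. tRF-36-PS5P4PW3FJHPEZE and tRF-33-PS5P4PW3FJHPW, which share their first base and differ by the anticodon, had an r of 0.70 and a rho of 0.88 (permutation p 1e-05 each, adjusted 1e-05), 0.68 without the 2 farthest libraries and 0.68 to 0.81 within batches. These fragments overlap in sequence and in library, so they are not independent measurements.

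The other position classes had lower correlations with that block, given as a description. The 10 fragments that start at base 1 and end at bases 18 to 31 had a median r of 0.20 with it, the 10 that start at bases 13 to 17 had 0.10, and the 3 that start at bases 35 to 39 had -0.03. The 5′-halves and the 36-nt fragment from base 1 (5 fragments) had a median r of 0.81 with the block, and the 3 that start at base 3 and end at bases 22 to 28 had 0.71. The pair of 46 and 50 nt had -0.16. Among the fragments from base 1 to bases 18 to 31, r with the block ranged from -0.33 to 0.88 for single pairs.

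**Figure D4:**
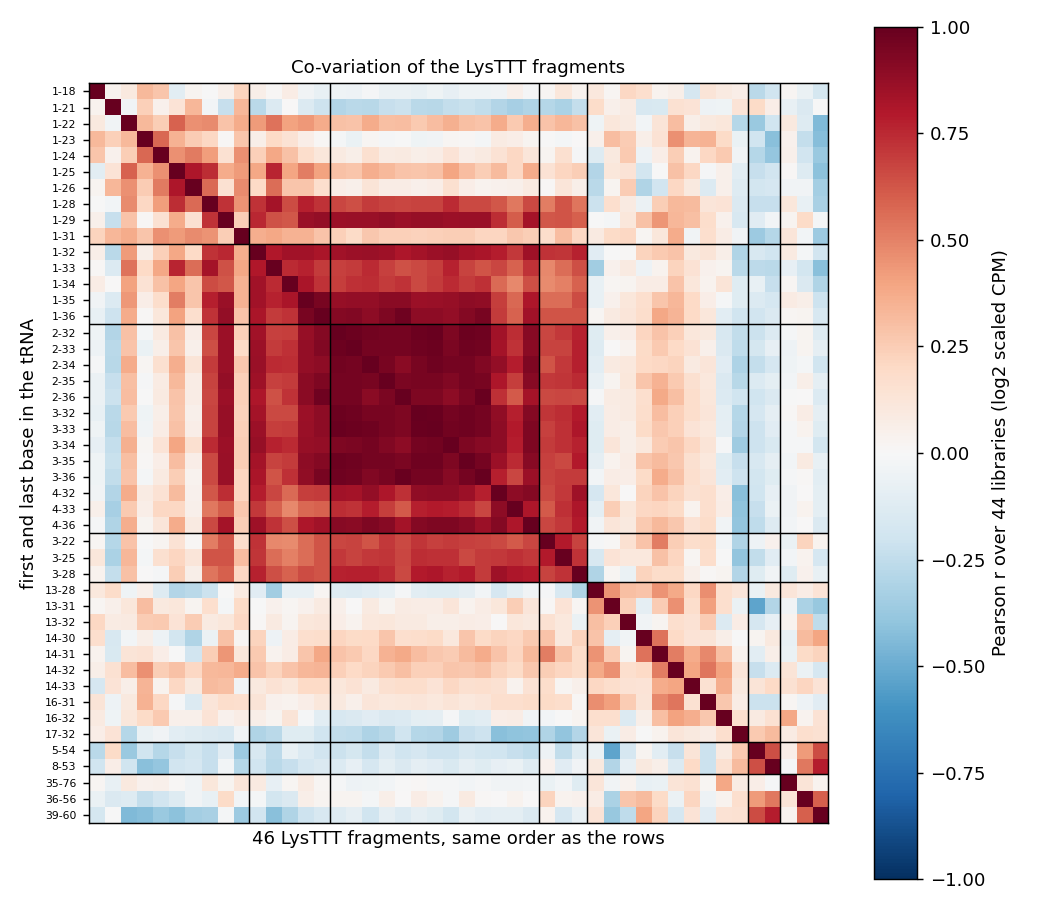
Pearson r between the 46 LysTTT fragments over 44 libraries, on the log2 scaled CPM scale, ordered by position class and then by first and last base; black lines separate the classes. The block of fragments starting at bases 2 to 4 and ending at bases 32 to 36 has a median r of 0.93, while its median r with the fragments starting at bases 13 to 17 is 0.10.

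The first comparison asked whether the anti-miR-132 oligonucleotide changed LysTTT fragments relative to the control oligonucleotide. No LysTTT fragment passed the test between AM132 and AM608. Fragments that lack the first 1 to 3 bases had lower fitted levels in AM132, and fragments with an intact 5′ end lay on both sides of 0. With batch as a covariate, edgeR's quasi-likelihood test with Benjamini-Hochberg adjustment called 0 of 32 tested LysTTT fragments and 0 of all 494 tested tRFs (0% called), and 1 of the 32 had an unadjusted p below 0.05. DESeq2 also called 0 of them. The other 14 LysTTT fragments had too few counts for the test, at most 546 each.

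In tRF-36-PS5P4PW3FJHPEZE the lowest, median and highest values were 340, 11222 and 25339 CPM in AM132 and 413, 14164 and 20981 CPM in AM608. The ranges overlapped almost completely, and the log2 fold change was -0.23 ± 0.36 (SE; edgeR adjusted p = 0.843), with 7 of 16 AM132 libraries below their batch's AM608 mean. In batch 3 fitted alone it was 0.043. tRF-35-K8HJ83ML5F82NZ stood at 62.7, 9028 and 16679 CPM in AM132 and at 95.3, 12715 and 22606 CPM in AM608. The fitted log2 difference was -0.46 ± 0.43 (edgeR adjusted p = 0.742), with 10 of 16 AM132 libraries below. tRF-34-32VIJMRPFQJDKQ stood at 35.8, 5763 and 12376 CPM in AM132 and at 21.2, 9007 and 28199 CPM in AM608. The fitted log2 difference was -0.61 ± 0.47 (edgeR adjusted p = 0.714), again with 10 of 16 AM132 libraries below. Each of these 3 differences is within 1.5 times its own standard error.

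The smallest p-values belonged to less abundant fragments. tRF-25-PS5P4PW3FJ, from base 1 to base 25, had 63.2, 222 and 1512 CPM (lowest, median, highest) in AM132 and 99.6, 180 and 695 CPM in AM608. Its log2 fold change was 0.59 ± 0.28 (edgeR p = 0.045, adjusted p = 0.641), and it was higher in 11 of 16 AM132 libraries. tRF-22-PS5P4PW3H, from base 1 to base 22, differed by 0.43 ± 0.23 (log2; adjusted p = 0.641), with 11 of 16 AM132 libraries above, but its sign turned in batch 1 fitted alone (-0.29). tRF-33-K8HJ83ML5F82DQ, from base 2 to base 34, differed by -0.64 ± 0.37 (log2; adjusted p = 0.641), with 11 of 16 below. None of the 3 separated the groups.

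By position, all 12 tested fragments that start at bases 2 to 4 and end at bases 32 to 36 had negative log2 fold changes, between -0.80 and -0.46 with a median of -0.62. The classes were chosen after these values were seen, and the 12 move as 1 block, so their shared sign is close to a single measurement. The summed level of the block was 305, 21788 and 53152 CPM (lowest, median, highest) in AM132 and 307, 32895 and 101666 CPM in AM608. Within batches, fitted alone, 12 of 12, 10 of 11 and 13 of 13 tested fragments of the block were negative in batches 1, 2 and 3, and none was called (smallest adjusted p for any LysTTT fragment 0.992, 0.974 and 0.244). Without AM132 8, AM132 12 and AM608 8 the median of the block was -0.54. LysCTT fragments of 46 nt or longer held 0.0080% to 0.278% of tRF counts in the AM608 libraries of batch 3. In the AM132 libraries of that batch they held 0.0829% to 28.5%. A fit with these LysCTT fragments left out called 0 of 491 tested tRFs. It is among 15 alternative fits, over which the median of the block ranged from -0.86 to -0.42. The part of the LysCTT fragments in the difference was not itself tested.

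The median log2 fold change of the 32 tested LysTTT fragments was -0.11, with 14 positive and 18 negative, beside 0.01 over all 494 tested tRFs. LysCTT fragments had a median of -0.26 over 80 tested, with 26 positive and 54 negative, and glutamate fragments had 0.02 over 93 tested. A test of whether the AM132 difference changed between batches 1, 2 and 3 called 0 of the 32 LysTTT fragments and 5 of all 494 tRFs (1.01% called), which were all LysCTT fragments. Without AM132 5, AM132 6 and AM608 5, the libraries high in pituitary markers, it called 0 of all tRFs. The smallest adjusted p among LysTTT fragments in that test was 0.932.

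**Figure D5:**
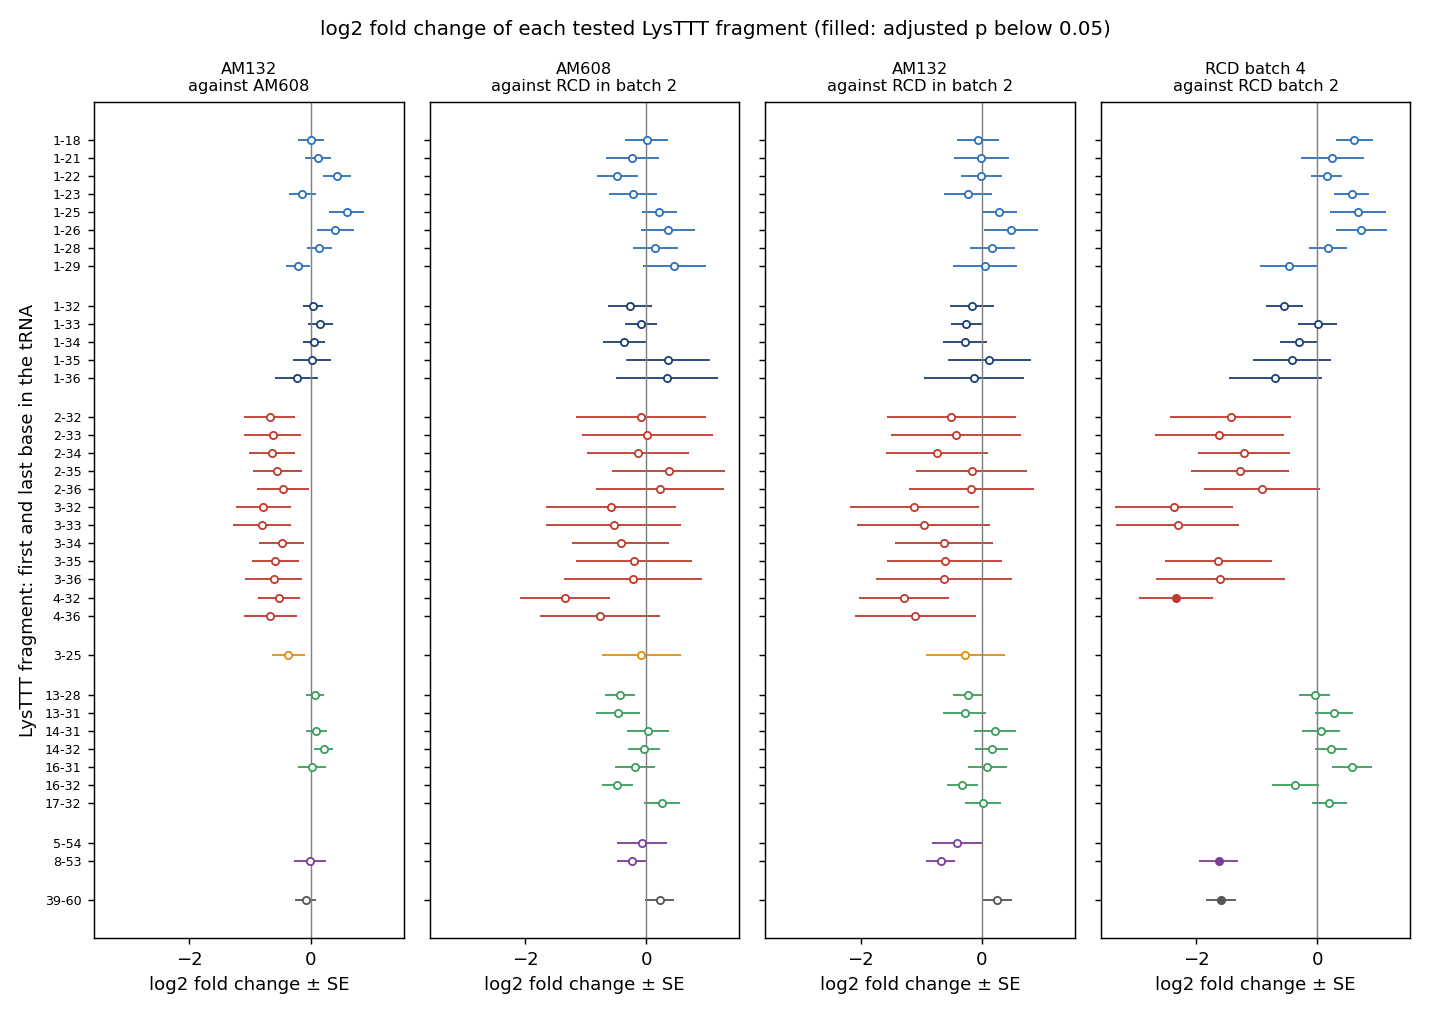
Log2 fold change with its standard error for each tested LysTTT fragment in 4 comparisons, ordered by position class; filled points have an adjusted p below 0.05. Only 3 points, all in the comparison of the batches of lean mice (-1.59, -1.63 and -2.33), are filled.

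The next comparisons asked how obese mice with the control oligonucleotide, and obese mice with the miR-132 oligonucleotide, differed from lean mice within batch 2, the only batch with all 3 groups. No LysTTT fragment was called in either. The lean libraries themselves lay far apart: tRF-36-PS5P4PW3FJHPEZE was at 3804, 373, 20349 and 13772 CPM in RCD 9, RCD 10, RCD 11 and RCD 12. In the 8 AM608 libraries of batch 2 it was at 413, 13150 and 15586 CPM (lowest, median, highest), and in the 8 AM132 libraries at 340, 7752 and 13785 CPM. The 4 lean libraries alone spanned more than either injected group.

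Between AM608 and RCD, 0 of 36 tested LysTTT fragments and 0 of 575 tested tRFs passed (0% called; edgeR), and 0 LysTTT fragments had an unadjusted p below 0.05. DESeq2 called 0 LysTTT fragments. The median log2 fold change of the LysTTT fragments was -0.11, beside 0.09 over all tested tRFs, and 0.12 without RCD 11. The 3 smallest p-values were those of tRF-17-W3FJHP1 (bases 16 to 32; log2 fold change -0.48 ± 0.26), tRF-29-MEF91SS2PMER (bases 4 to 32; -1.34 ± 0.74) and tRF-16-JMRPFQD (bases 13 to 28; -0.43 ± 0.25), each with an edgeR adjusted p of 0.992. tRF-17-W3FJHP1 and tRF-16-JMRPFQD were below the lean mean in 8 of 8 AM608 libraries, and tRF-29-MEF91SS2PMER in 5 of 8.

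Between AM132 and RCD, 0 of 36 LysTTT fragments and 0 of 575 tRFs passed (0% called; edgeR), and 1 LysTTT fragment had an unadjusted p below 0.05. DESeq2 called 0 LysTTT fragments. The median log2 fold change was -0.22, beside 0.06 over all tested tRFs, and it was -0.09 without RCD 11 and -0.10 without RCD 12. The fragment with the smallest p was tRF-46-VIJMRPFQJDZXHY13KK0, the 46-nt piece that spans the anticodon from base 8 to base 53. It was at 276, 342, 259 and 341 CPM in RCD 9 to RCD 12. In AM132 it was at 92.1, 183 and 253 CPM (lowest, median, highest), so the 2 groups did not overlap on the scaled level. Without the scaling they overlapped, with 26 of 80484 tRF counts in AM132 12 and 28 of 160383 in RCD 11. The scaling factors of these 2 libraries were 1.387 and 0.674. Of all 575 tested tRFs, 0.522% had ranges that did not overlap in this comparison. Its log2 fold change was -0.68 ± 0.24 (edgeR p = 0.01, adjusted p = 0.994), with 8 of 8 AM132 libraries below the lean mean. In AM608 it was at 181, 248 and 288 CPM, with a log2 fold change of -0.24 ± 0.24 against the same lean libraries (adjusted p = 0.992). tRF-29-MEF91SS2PMER (-1.28 ± 0.74) and tRF-17-W3FJHP1 (-0.32 ± 0.26) had the next smallest p-values, both with an adjusted p of 0.994. Both comparisons use the same 4 lean libraries.

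The last comparison was between the 2 batches of lean mice, which share diet and tissue in the labels. Here 3 of 32 tested fragments were lower in batch 4 (n = 8) than in batch 2 (n = 4), and 0 were higher. Over all 510 tested tRFs 9.80% were called, 27 of them lower in batch 4 (5.29%) and 23 higher. In this fit the share called among LysTTT fragments was therefore close to that of the whole table. The 50 calls became 33 without RCD 7 and 28 without RCD 12. The 3 are tRF-22-WURMJKYON, an interior piece from base 39 to base 60 on the 3′ side of the anticodon, tRF-46-VIJMRPFQJDZXHY13KK0, which spans the anticodon, and tRF-29-MEF91SS2PMER, which lacks the first 3 bases and ends at base 32. The median log2 fold change of the LysTTT fragments was -0.39 (13 positive, 19 negative), beside -0.08 over all tested tRFs, and -0.13 without RCD 11.

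tRF-22-WURMJKYON was at 431, 644, 601 and 863 CPM in the lean libraries of batch 2 (RCD 9 to RCD 12) and at 123, 179 and 259 CPM (lowest, median, highest) in the 8 of batch 4. On this scaled level every library of batch 4 was below every library of batch 2. The log2 fold change was -1.59 ± 0.24 (edgeR adjusted p = 0.00107). Relative to tRF counts without the scaling, the 2 batches overlapped. RCD 11 had 65 of 160383 counts, below the proportion in RCD 7 (22 of 51869) and RCD 8 (18 of 38619). The scaling factors of these libraries were 0.674, 2.21 and 2. tRF-46-VIJMRPFQJDZXHY13KK0 was at 44.7, 99.7 and 145 CPM in batch 4, all below the 259 to 342 CPM of batch 2, with a log2 fold change of -1.63 ± 0.32 (edgeR adjusted p = 0.00751). Without the scaling this fragment overlapped too, with 28 of 160383 counts in RCD 11 and 11 of 51869 in RCD 7. These 2 were the only tested LysTTT fragments whose batches did not overlap on the scaled level. That is a smaller share than the 10.6% of all 510 tested tRFs that did not overlap on it.

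tRF-29-MEF91SS2PMER overlapped. It was at 66.4, 60.4, 2025 and 974 CPM in RCD 9 to RCD 12 and at 78.4, 105 and 237 CPM in batch 4, so RCD 11 and RCD 12 were far above the 8 libraries of batch 4 while RCD 9 and RCD 10 were below all of them. Its log2 fold change was -2.33 ± 0.61 (edgeR adjusted p = 0.0298). Without RCD 11 it was -1.34 (adjusted p = 0.184), without RCD 12 -2.30 (adjusted p = 0.0736) and without RCD 7 -2.42 (adjusted p = 0.0533), so the call rested on single libraries. All 10 tested fragments of its position block were lower in batch 4, with a median of -1.61, and that median was -0.87 without RCD 11. The 5 fragments from base 1 to bases 32 to 36 had a median of -0.42, and the 8 tested fragments from base 1 to bases 18 to 29 had a median of 0.40.

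The batch difference of tRF-22-WURMJKYON was not limited to lean mice. It ranged from 431 to 927 CPM over all 20 libraries of batch 2, with medians of 670 in AM132, 665 in AM608 and 623 in RCD, and from 99.8 to 350 CPM over the 24 libraries of batches 1, 3 and 4. Relative to tRF counts without the scaling, tRF-22-WURMJKYON overlapped between these batches. RCD 11 of batch 2 had 65 of 160383 counts, a lower proportion than AM132 1 of batch 1 (22 of 42819, scaling factor 1.849). On the scaled level it was the only LysTTT fragment that separated batch 2 from the others without overlap. Of 761 fragments with at least 220 counts, 1.71% did so. No fragment of the 761 separated batch 1, 3 or 4 in this way. tRF-46-VIJMRPFQJDZXHY13KK0 was at 92.1, 227 and 342 CPM (lowest, median, highest) in batch 2 and at 44.4, 96.9 and 198 CPM elsewhere, with overlap.

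Several of the marker miRNA sums moved with batch as well. The choroid plexus markers (miR-204-5p, miR-34c-5p and miR-449a-5p) summed to 3528 to 5443 CPM of the miRNA table in batch 2, to 1704 to 2372 in batch 1, to 1387 to 2562 in batch 3 and to 1704 to 7608 in batch 4. The pituitary markers had a median sum of 416 in batch 2 and of 195, 182 and 237 in batches 1, 3 and 4. The brain markers had a median sum of 251880 in batch 2 and of 326480, 329700 and 299960 in batches 1, 3 and 4. The part of any of these in the batch difference of the LysTTT fragments was not tested.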

How the data were processed

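The deposited tRF and miRNA tables hold raw counts per fragment or miRNA and library, per the file headers; the tRNA reference, aligner and build are not given in the sources used here, and the submitters' processing notes name only FastQC. All 46 LysTTT fragments list a chromosome 1 position past the last RefSeq gene of mouse chromosome 1, so no genome position is printed. The tRNA names, fragment types and base positions rest on the same unnamed tRNA reference. Whether it is a mouse reference is not known here. Members and lists were chosen with earlier results of these data known. Counts were tested with edgeR 4.0.16 (quasi-likelihood, TMM scaling, filterByExpr with a minimum count of 10 and a minimum total of 15, R 4.3.3) over all tRFs, with Benjamini-Hochberg adjustment and a threshold of 0.05. AM132 against AM608 had batch as a covariate. The comparisons with RCD used batch 2 alone, in 1 fit of its 3 groups, and the 2 RCD batches were compared by themselves. Scaled CPM is the count relative to the library's tRF counts (counts-per-million) divided by the TMM factor (0.517 to 2.21), with a prior count of 2 for log2 values. Named fragments are the 10 most abundant, the most abundant of each type, those called, and the 3 smallest p-values where under 3 were called. Position classes, the batch ranges and the correlations were added after the data were seen. DESeq2 1.42.0, other scalings, filters and left-out libraries were the alternatives. The fits were also run on simulated counts with planted differences. Those counts were drawn separately for each fragment and held no other batch difference. They therefore do not cover the co-variation and batch differences of these libraries. No 2 libraries of the same group agreed within sampling noise (closest pair, chi-square per degree of freedom 5.92). Pairs from different groups were not compared in this way.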

Additional observations from a re-analysis of the deposited data

Results flagged for a closer look

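Within each set of 4 or 8 libraries of 1 group and batch, the highest or lowest library was compared with the gap to its nearest neighbour for 22 measures, 176 sets in all. In 16 of these sets 1 library lay apart from the others; chance gives about 1 in 20, and the measures overlap in their counts. No explanation was tested.

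In 6 of the 16 it was AM608 8 in batch 2. Its LysTTT counts ended at base 36 in 8.62%, while its batch neighbours of the same group lay between 59.2% and 66.9%. On the log2 CPM scale it stood at 8.76 for tRF-36-PS5P4PW3FJHPEZE (others 12.42 to 13.93), at 6.86 for tRF-35-K8HJ83ML5F82NZ (11.98 to 13.70) and at 5.38 for tRF-34-32VIJMRPFQJDKQ (11.08 to 13.41). It stood at 4.36 for tRF-31-K8HJ83ML5F82D (7.56 to 10.24) and at 5.71 for tRF-35-PS5P4PW3FJHPEZ (8.53 to 9.73). In the order given, the raw counts in AM608 8 were 39, 9, 2, 0 and 3. The value of 4.36 therefore stands for 0 counts and is set by the prior count of 2. These 5 fragments start at bases 1 to 3 and end at base 32, 35 or 36.

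AM608 13 in batch 3 lay apart in 4 sets. Its LysTTT counts started at base 1 in 20.9%, against 29.1% to 30.5% in the other 3. It was highest for tRF-34-32VIJMRPFQJDKQ at 14.78 (others 13.51 to 13.70), for tRF-30-32VIJMRPFQJD at 14.02 (12.63 to 12.76) and for tRF-29-MEF91SS2PMER at 11.52 (9.75 to 9.99). This library also had the most tRF counts of the series, 221358.

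Among lean mice, RCD 10 of batch 2 had 7.62% of LysTTT counts ending at base 36, against 51.8% to 59.5% in the other 3. RCD 1 of batch 4 was highest for tRF-33-PS5P4PW3FJHPW at 12.31 (others 10.35 to 11.12), and RCD 3 was highest for tRF-29-MEF91SS2PMER at 8.01 (6.63 to 7.17).

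Among AM132 libraries, AM132 15 of batch 3 had 2.70% of its tRF counts in LysTTT fragments, against 4.50% to 4.65% in the other 3. AM132 1 of batch 1 was lowest for tRF-36-PS5P4PW3FJHPEZE at 10.44 (others 13.97 to 14.63) and had the fewest tRF counts of its group, 42819. AM132 3 of batch 1 was highest for tRF-17-W3FJHP1 at 7.27 (6.77 to 6.84). That value rests on 13 counts, against 7, 9 and 9 counts in AM132 1, AM132 2 and AM132 4.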

How the results depend on the processing

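Calls of LysTTT fragments stayed at 0 in the 3 comparisons between groups under every alternative run, 17 for AM132 against AM608 and 16 each against RCD; the smallest adjusted p ranged from 0.244 to 0.992, from 0.131 to 1.00 (AM608) and from 0.201 to 1.00 (AM132). Among these alternatives are a minimum of 440 counts and the addition of rows naming LysTTT and another tRNA. Both only relist rows of the main fit, and 0 of the added rows reach 220 counts. Neither could therefore give a call in these comparisons. Over all tRFs, DESeq2 called 1 between AM608 and RCD, and 1 was called between AM132 and RCD with no filter on low counts. The test for a difference between batches also kept 0 LysTTT calls, while its calls over all tRFs were 5, 4 with DESeq2's size factors in edgeR, 7 with DESeq2, and 0 without AM132 5, AM132 6 and AM608 5 or with the replicate block. Between the lean batches, 3 LysTTT calls became 4 with DESeq2 and 2 to 4 when each lean library of batch 2 was left out. With no filter on low counts they became 13 of 46, beside 109 of all 9917 tRFs then tested. The LysTTT share called was above that of the whole table in that setting, for members that were selected on their counts. Over all tRFs 50 calls became 93 with DESeq2, 33 without RCD 7 and 28 without RCD 12. Over the alternatives the median log2 fold change ranged from -0.22 to -0.01 (AM132 against AM608), -0.35 to 0.12 (AM608 against RCD), -0.54 to -0.09 (AM132 against RCD) and -0.55 to -0.13 (lean batches). The mean LysTTT share, 3.77% of tRF counts, was 4.02% with no minimum count and 0.104% of miRNA and tRF counts together, since the denominator is larger. In AM132 against AM608, tRF-22-PS5P4PW3H was at -0.29 in batch 1 alone and tRF-36-PS5P4PW3FJHPEZE at 0.043 in batch 3 alone, both opposite to the pooled sign; the cause was not tested. Leaving LysCTT fragments of 46 nt or longer out of the table, and AM132 1 or RCD 7 out of the samples, was added after the data were seen.

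Replicate numbers are shared by AM132 and AM608. Over 16 same-numbered pairs the correlation of deviations ranged from -0.60 to 0.81, 8 were over 0.1, and 2 libraries were closest to their own number. The tRF levels therefore showed no regular pairing by number. They cannot tell whether same-numbered mice were matched in another way. With the replicate block, AM132 against AM608 had 0 LysTTT calls and a median of -0.12; against RCD, the block also left 0 calls.

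Depth limits the rare fragments: 14 of 46 were not tested in AM132 against AM608 or between the lean batches, and the shallowest library held 38619 tRF counts.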
